A study of Mus musculus with 7 samples.

Results

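Chromatin was examined at 8 genes for transcription factors, Six4 and members of the Mef2 and FoxO families, in mouse muscle stem cells (MuSCs). The genes are Six4, Mef2a, Mef2b, Mef2c, Mef2d, Foxo1, Foxo3 and Foxo4, taken as a list of gene names, and they are 8 of the 21826 protein-coding genes of GENCODE M21 (mouse build mm10). They lie at chr12:73099609-73113456 (Six4, minus strand), chr7:67231163-67372858 (Mef2a, minus), chr8:70139711-70167488 (Mef2b, plus), chr13:83504034-83667080 (Mef2c, plus), chr3:88142372-88172086 (Mef2d, plus), chr3:52268336-52353221 (Foxo1, plus), chr10:42181841-42276755 (Foxo3, minus) and chrX:101254528-101260873 (Foxo4, plus). For each gene, peaks were taken from the gene body and 20 kb on either side. ATAC-seq, which cuts accessible DNA with a transposase, was represented by 4 libraries of uninjured hind limb MuSCs at 0 h, 2 from Control and 2 from TRF2KO mice. In the knockout mice the floxed TRF2 gene (Terf2) was deleted by CreER expressed from Pax7 and induced with tamoxifen in mice aged between 8 and 10 weeks, so deletion depended on Pax7 expression. The animals were on a C57BL/6 background. The GEO genotype field reads Wildtype for all libraries, and the genotype was taken from the sample titles. CUT&Tag, in which an antibody directs the transposase to a bound protein, was represented by 2 TRF2 libraries and 1 rabbit IgG library from wild-type MuSCs of tibialis anterior muscle, labelled as 3 days after notexin injury (the study's methods give an earlier time, a second muscle and control mice carrying Pax7 Cre and a TdTomato reporter). The TRF2 and ATAC libraries thus came from injured and uninjured muscle respectively, and no CUT&Tag library of TRF2KO cells was used here. The labels do not say whether libraries came from separate animals, so the spread between them may be technical.

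Six4 is a homeodomain protein that acts with Eya and Dach cofactors in early muscle formation. The Mef2 proteins are MADS-box factors that work with the MyoD family on muscle genes and are held in check by class IIa histone deacetylases. FoxO proteins are forkhead factors that insulin and growth factor signalling drives out of the nucleus through Akt, and in muscle stem cells they are known for their part in quiescence. TRF2 binds double-stranded telomere repeats, and the question addressed by this series was what it does elsewhere in the genome of MuSCs.

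The MACS lists held between 84102 and 100521 peaks for ATAC, 12290 and 15479 peaks for TRF2 and 656 peaks for IgG. Background pileup, which follows depth, was 4.56 fragments in Control replicate 2 and between 3.35 and 3.41 in the other 3 ATAC libraries. Each MACS fold is the summit pileup over the background, 1 added to both, so it is a ratio within a library. For TRF2 the background differed from peak to peak. In replicate 2 it was between 0.36 and 2.24 at peaks near the 8 genes, where it could be solved. The targeted gene was checked first: at the Terf2 start the ATAC peak had a fold of 54.3 in Control replicate 1 and 48.4 in Control replicate 2, against 21.5 and 18.6 for the knockout. All 8 MuSC marker genes had a start peak in all 4 ATAC libraries, as had 13885 of the 21826 coding genes. By rank of fold 4 of the 8 markers were lower in TRF2KO without overlap, against 28.9% of those 13885 genes. In the limma test described further on 2 of the 8 fell, where 7.32% of all regions were called lower. The immune genes Ptprc and Itgam had no start peak in any library. Some markers of other cell types were also open, 14 of all 23 markers having a start peak throughout, among them the fibro-adipogenic gene Pdgfra at percentiles between 87.8 and 90.0 (a percentile is the share of peaks in a library's list with a fold no higher). The other genes of its list, Dcn and Ly6a, had a start peak in 2 libraries and 1 library. The macrophage gene Cd68 was at 46.4 and 53.2 for Control but 24.5 and 27.1 for TRF2KO. The part of other cells in the results was not tested.

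TRF2 peaks were found in the windows of 7 of the 8 genes, and in both libraries at the same place for 5 of them. The share over the windows of all coding genes is not given here, so these counts have no background. The places shared by both libraries, called TRF2 regions, numbered 6: 2 at Mef2d and 1 each at Mef2a, Mef2b, Foxo3 and Six4. No IgG peak lay in any of the 8 windows, but the IgG list held only 656 peaks. Of all 7414 TRF2 regions 3.26% overlapped an IgG peak. Sequences from the 6 regions are shown to give the DNA where TRF2 signal was found in both libraries, 121 bases around the midpoint between the summits, on the plus strand of GRCm38 (mm10 coordinates). At Six4 and Foxo3 the summits of the libraries lay further apart, and the printed stretch is between them and holds neither. Capitals mark runs of at least 3 G or at least 3 C, the elements of G-quadruplexes (G4, four-stranded DNA folds of G-rich sequence).
Mef2d downstream, chr3:88177615-88177735: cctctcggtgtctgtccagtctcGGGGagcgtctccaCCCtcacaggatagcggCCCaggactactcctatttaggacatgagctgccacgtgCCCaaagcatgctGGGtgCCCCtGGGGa
Mef2d start, chr3:88142098-88142218: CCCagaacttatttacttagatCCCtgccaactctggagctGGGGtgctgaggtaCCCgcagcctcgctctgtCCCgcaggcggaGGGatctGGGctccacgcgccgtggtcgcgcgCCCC
Mef2b inner start, chr8:70152779-70152899: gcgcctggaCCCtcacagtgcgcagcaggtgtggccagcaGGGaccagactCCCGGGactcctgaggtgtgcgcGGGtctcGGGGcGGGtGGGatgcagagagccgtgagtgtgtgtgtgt
Mef2a downstream, chr7:67222478-67222598: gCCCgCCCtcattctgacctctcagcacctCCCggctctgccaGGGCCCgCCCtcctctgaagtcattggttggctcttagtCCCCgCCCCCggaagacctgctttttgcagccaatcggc
Six4 intron, chr12:73110768-73110888: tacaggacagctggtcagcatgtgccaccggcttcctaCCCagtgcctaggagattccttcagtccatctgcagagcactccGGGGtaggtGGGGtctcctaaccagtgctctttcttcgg
Foxo3 upstream, chr10:42277857-42277977: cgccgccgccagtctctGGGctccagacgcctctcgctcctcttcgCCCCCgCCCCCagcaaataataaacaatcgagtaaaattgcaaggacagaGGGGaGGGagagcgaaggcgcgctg

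The highest TRF2 signal among the 8 genes was downstream of Mef2d, a member widely expressed in adult muscle. The region, chr3:88177552-88178227, had a fold of 8.74 over 20 fragments in replicate 1 and 8.29 over 18 fragments in replicate 2, both summits at the same base. It lay 35.5 kb from the Mef2d start, beyond the end of the gene, and at an annotated start of the noncoding gene 1700113A16Rik. The ATAC peak there had folds of 154 and 127 in Control and 171 and 158 in TRF2KO, higher than the Mef2d start itself in every library. The second Mef2d region, chr3:88142001-88142529, covered the gene start and had low folds of 4.34 and 3.92, at percentiles 16.6 and 6.30 of the 2 TRF2 lists. Its summits held 13 and 11 fragments over backgrounds of 2.23 and 2.06. The region at the inner Mef2b start held a similar 12 and 10 fragments, but over lower backgrounds of 0.72 and 0.73.

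At Mef2b, whose product is best known from B cells, the TRF2 region chr8:70152696-70152985 lay at an inner start 13.1 kb into the gene, with folds of 7.55 and 6.37. The summits of the libraries, at 70152838 and 70152841, nearly coincided. The outer start of Mef2b had a TRF2 peak in replicate 2 alone (fold 6.81). At Mef2a the region chr7:67222252-67222708, with folds of 5.49 and 6.53, was downstream of the gene and at starts of its neighbours Lysmd4 and 1700112J16Rik. The Six4 region, chr12:73110573-73111104, was in an intron, its centre 2618 bases from the gene start, with folds of 7.98 and 6.72, and its summits differed in position between the libraries. At Foxo3 the region chr10:42277769-42278177 began 1014 bases upstream of the nearest coding start, with folds of 5.57 and 3.99. The summit of the Foxo3 ATAC peak lay inside it, at 42277845 or 42277848 in each ATAC library.

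Foxo4, the smallest of the genes, had a TRF2 peak in each library on opposite sides of its start, chrX:101254105-101254444 in replicate 1 (fold 4.51) and chrX:101254890-101255099 in replicate 2 (fold 4.09). They did not overlap and so formed no shared region. Foxo1 had 2 peaks in replicate 1 and 1 elsewhere in replicate 2, with folds between 4.12 and 4.83. Mef2c, needed for muscle and heart development, had no TRF2 peak in either library. Summit counts in the shared regions were between 8 and 20 fragments, so the order of these folds is known only within wide counting error. The order also reflects the background, which in replicate 1 ran from 0.64 at the Mef2a region to 2.23 at the Mef2d start.

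**Figure D1:**
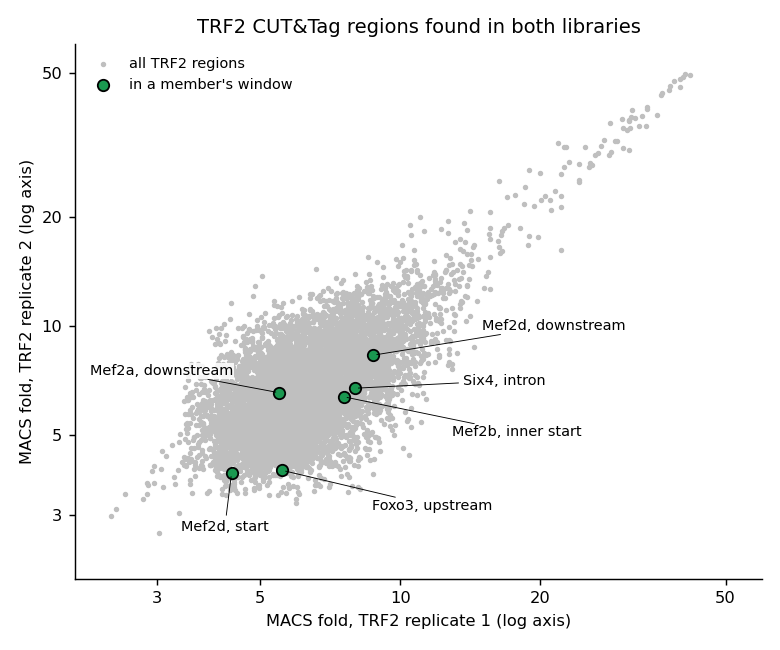
MACS fold of TRF2 CUT&Tag regions found in both libraries, replicate 1 on the x axis and replicate 2 on the y axis (log axes), with all 7414 regions in grey and the 6 in the windows of the listed genes in green. The region downstream of Mef2d is highest of the 6 in both libraries, and the Mef2d start and Foxo3 upstream regions are lowest in replicate 2.

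Counting only TRF2 regions within 1 kb of a coding start, 2 of 8 genes had one (Mef2b and Mef2d), against 23.7% of all coding genes and 37.1% of the coding genes with a start peak in all 4 ATAC libraries. Within 3 kb, Six4 and Foxo3 joined them, giving 4 of 8 against 24.8% of coding genes. All 8 genes had a start peak in all 4 ATAC libraries. For coding genes with such a peak the 3 kb share is not given here, and it can be no lower than 37.1%. A G4 pattern (4 runs of at least 3 G with 1 to 7 bases between) was present on either strand in 3 of the 6 regions, those at Mef2a, Mef2b and the Mef2d start, and in 35.5% of all 7414 TRF2 regions. The first match read, on its G-rich strand, GGGTCTCGGGGCGGGTGGG at Mef2b, GGGCGGGCCCTGATGGGCGGGG at Mef2a and GGGGGCGGGGCCTGGCAGGGAGGCCTGGG at the Mef2d start. None of the 6 regions held the telomere unit TTAGGG on either strand. GC content was between 60.3% and 67.1%, with a median of 62.2% over all TRF2 regions. Thus the strongest region, downstream of Mef2d, and the Six4 and Foxo3 regions carried no G4 match by this pattern. All 6 regions overlapped an ATAC peak in all 4 libraries.

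The ATAC peak at the gene start was present for all 8 genes in all 4 libraries, but its height differed widely between them. Foxo3 was highest, with folds of 164 and 132 in Control and 175 and 165 in TRF2KO, above 99.4% of peaks in each list. Mef2b followed with folds of 93.2 and 80.4 in Control and 105 and 98.3 in TRF2KO. That peak also covers starts of Rfxank and Borcs8 and cannot be assigned to Mef2b alone, and the peak at the inner Mef2b start was lower, with folds of 26.9 and 21.8 in Control and 24.7 and 21.8 in TRF2KO. Mef2d had folds of 84.0 and 78.5 in Control and 91.9 and 79.9 in TRF2KO, close to Mef2b and overlapping with it in range. Mef2a, with 51.3 and 50.9 in Control and 62.4 and 59.0 in TRF2KO, and Foxo1, with 44.6 and 53.3 in Control and 60.4 and 49.7 in TRF2KO, overlapped each other in range. Foxo4 had folds of 45.3 and 31.9 in Control and 38.2 and 32.5 in TRF2KO. Six4 had folds of 37.5 and 29.5 in Control and 30.4 and 30.0 in TRF2KO, a range that overlapped that of Foxo4. Mef2c stood apart at the low end, with folds of 5.75 and 6.48 in Control and 7.55 and 6.58 in TRF2KO, on between 24 and 35 fragments at the summit. The Mef2c peak, chr13:83523713-83525009, lay at inner starts of the gene, 20.3 kb past its first one, and the first start had no peak in any library.

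The start peaks also differed in breadth. In Control replicate 1 the peaks of Mef2d, Foxo3, Foxo1 and Six4 were wider than 99.2%, 98.8%, 97.8% and 96.4% of coding start peaks. Those of Mef2a and Foxo4 were wider than 70.7% and 71.5%, while those of Mef2b and Mef2c were at 53.7% and 15.5%. Foxo3 was thus high and broad and Mef2c low and short, but the Six4 peak was broader and lower than that of Mef2b. The broad Six4 peak, 3743 bases when merged over the libraries, covered the intronic TRF2 region in all libraries but TRF2KO replicate 2, where that region fell under a separate peak with a fold of 15.7.

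**Figure D2:**
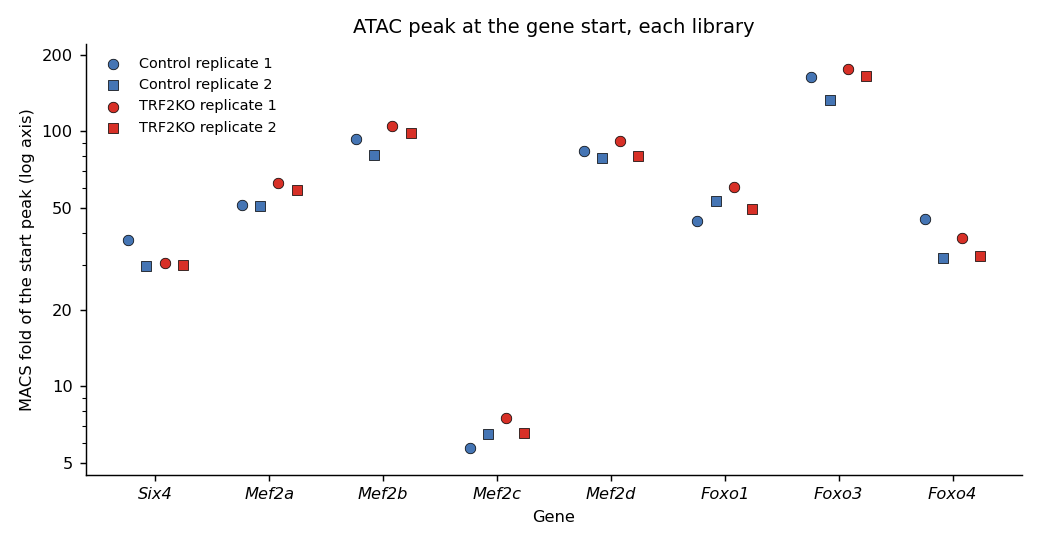
MACS fold of the strongest ATAC peak within 1 kb of a coding start (log axis) for each gene, with a point for each library (blue Control, red TRF2KO; circles replicate 1, squares replicate 2). Foxo3 is highest and Mef2c lowest in every library, and the genotypes lie close together at each gene.

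To compare genotypes at the starts, each peak was given its percentile of fold in its own list. At Six4 the percentiles were 84.6 and 84.8 in Control and 81.3 and 82.0 in TRF2KO, and at Foxo4 they were 87.5 and 86.0 in Control and 84.9 and 83.3 in TRF2KO. Both genes were lower in both knockout libraries, with mean differences of -3.09 and -2.60 points. Mef2b was higher in both, with 96.1 and 96.5 in Control and 96.6 and 96.6 in TRF2KO, a mean gain of 0.29 points at the peak shared with Rfxank. The other 5 genes overlapped between genotypes. On the fold as deposited, without ranking, neither Six4 nor Foxo4 separated, and Mef2a, Mef2b, Mef2c and Foxo3 were higher in both knockout libraries. With 2 libraries against 2, the exact two-sided permutation test cannot give a p below 0.333, which is the value for Six4, Foxo4 and Mef2b. Among 13885 coding genes with a start peak in all 4 libraries, 28.9% were lower without overlap and 9.1% were higher, so 2 of 8 and 1 of 8 are near the background. A drop as large as that of Six4 was found at 11.9% of these genes, and one as large as that of Foxo4 at 14.1%. The median difference was 0.17 points for the 8 genes and -0.25 points for all coding genes.

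The number of peaks in a window varied more than the start peaks did, and it was lower in both TRF2KO libraries at Foxo3, Foxo1 and Mef2b. Foxo3 had 34 and 44 peaks in Control and 26 and 28 in TRF2KO. Foxo1 had 17 and 32 in Control and 15 and 13 in TRF2KO, and Mef2b had 10 and 14 in Control and 9 in each TRF2KO library. At these 3 genes the genotypes did not overlap, and no gene was higher without overlap. The share of coding gene windows lower without overlap was 14.2%, and higher 2.78%, but windows with few peaks seldom separate. Among the 3742 coding genes whose window averaged at least 9 peaks, as 5 of the 8 genes did, 31.8% were lower. For each of the 3 genes the exact two-sided permutation p was 0.333, the smallest possible.

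Summed over the 8 windows there were 94 and 124 peaks in Control and 81 and 84 in TRF2KO, a change of the mean by -24.3% (109 ± 21.2 against 82.5 ± 2.12, SD, n = 2, exact permutation p = 0.333), while whole lists changed by -11.0%. Control replicate 2, the library with the highest background pileup, alone supplied 30 of the 143 merged regions in the windows (such regions made up 13.6% of the genome's), 12 of them at Foxo1 and 8 at Foxo3. Without it the mean difference shrank from -26.5 to -11.5 peaks. With the caller GoPeaks, Foxo3 had 21 and 18 regions in Control and 15 in each TRF2KO library, and Foxo1 had 12 in each Control library and 8 and 9 in TRF2KO. Mef2b had 7 and 8 in Control and 7 in each TRF2KO library, which overlap. With SEACR the ranges of all 3 genes overlapped, and the summed difference turned to 3.5 regions more in TRF2KO. Mef2c and Foxo4 windows had between 3 and 5 peaks and Six4 between 2 and 4, with no difference between mean numbers at Mef2c and Foxo4. For their length, windows ran from 24.5 peaks per 100 kb at Foxo3, above 98.0% of coding genes, to 1.72 at Mef2c, above 25.9%, with a median of 5.16 over all coding genes.

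**Figure D3:**
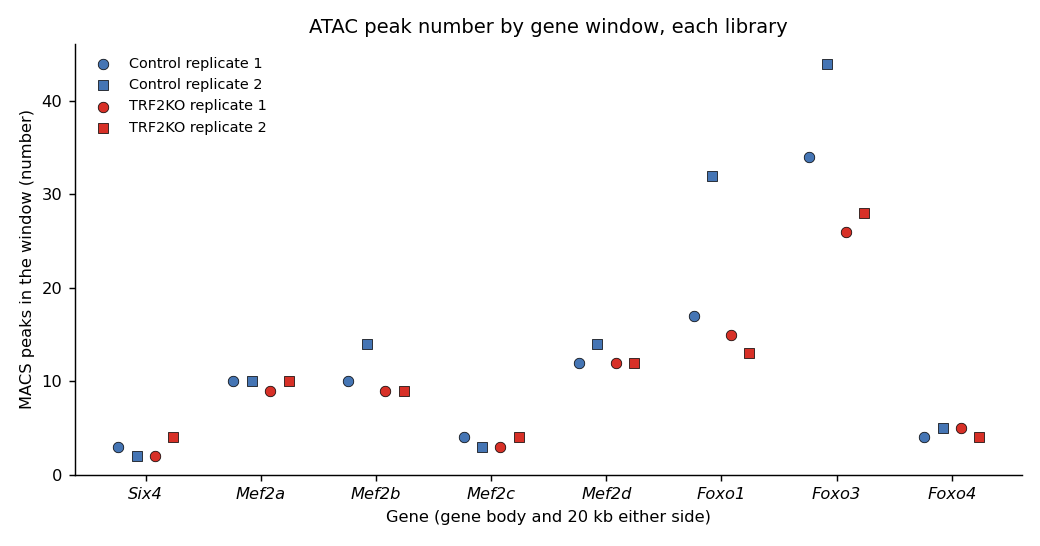
Number of MACS ATAC peaks in the gene body and 20 kb either side for each gene, with a point for each library (blue Control, red TRF2KO; circles replicate 1, squares replicate 2). The libraries separate by genotype at Foxo3, Foxo1 and Mef2b, and Control replicate 2 is the highest library at all 3.

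A region was called specific to a genotype when both of its libraries and neither of the other had a peak. In the 8 windows 9 of 143 regions (6.29%) were specific to Control, against 4.48% of all 122720 regions, and 1 (0.70%) to TRF2KO, against 1.12%. Introns of Foxo3 held 5 of the 9, and Foxo1 held 2 and Mef2b and Mef2d 1 each. All were low peaks, with folds between 3.06 and 7.56 on between 14 and 41 fragments. The strongest was chr10:42248663-42249127, 27.9 kb into Foxo3, with folds of 6.90 and 7.56 in Control. It stood beside another, chr10:42249383-42250119, with folds of 4.60 and 4.86. Of the 9 regions 8 overlapped a SEACR or GoPeaks region in at least 1 TRF2KO library. An overlapping region of another caller need not share the summit. Whether signal was lacking at these places in TRF2KO was therefore not tested. The TRF2KO-specific region, chr3:88155648-88156164, overlapped an untranslated exon of Mef2d and had folds of 2.97 and 3.63. SEACR regions overlapped it in all 4 libraries, Control included, and GoPeaks regions in none.

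Regions with a peak in all 4 libraries allowed a test of the fold itself with limma, which fits every region and borrows the spread across them. Of 61610 such regions, 7.32% passed an adjusted p of 0.05 as lower in TRF2KO and 4.94% as higher. In the windows of the listed genes 6 of 59 were lower (10.2%) and 1 was higher (1.69%), together 11.9% against 12.3% of all regions. The 7 calls fell at 2 genes, 3 at Mef2a and 4 at Foxo3, and none was at a gene start. The median log2 change was -0.06 in the windows and 0.02 over all regions.

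At Mef2a, whose protein rises as myoblasts differentiate, the largest change was at chr7:67390189-67391455, 18.0 kb upstream of the gene. Control replicate 1 had a fold of 43.0 there and Control replicate 2 one of 33.5, against 16.9 and 16.1 in TRF2KO. Both knockout libraries were less than both controls, with a log2 change of -1.13 ± 0.13 (SE, limma adjusted p = 1.71e-06). A second upstream region, chr7:67384924-67385896 at 12.6 kb, had folds of 13.3 and 9.90 in Control and 7.09 and 5.67 in TRF2KO and fell by 0.69 ± 0.21 on the log2 scale (limma adjusted p = 0.031). The third, chr7:67230257-67230661, lay just beyond the end of the gene, and its folds were 8.28 and 6.66 in Control and 4.12 and 3.18 in TRF2KO, a log2 change of -0.92 ± 0.23 (limma adjusted p = 0.010). Both upstream regions held a TRF2 peak in replicate 2 alone, with folds of 7.33 and 5.58. In contrast the Mef2a start had a log2 change of 0.21 ± 0.09 (limma adjusted p = 0.137).

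At Foxo3, a factor tied to MuSC quiescence, the 4 called regions were all intronic. The region chr10:42268160-42268830, 8.26 kb into the gene, had folds of 11.7 and 10.3 in Control and 4.35 and 4.99 in TRF2KO, on 50 and 56 against 18 and 21 fragments, a log2 change of -1.08 ± 0.22 (limma adjusted p = 0.0016). Further in, chr10:42225424-42226218 at 50.9 kb had folds of 7.36 and 7.20 in Control and 2.97 and 3.86 in TRF2KO, a log2 change of -0.97 ± 0.24 (limma adjusted p = 0.0085). The broad neighbouring region chr10:42227731-42232194 fell less, by 0.36 ± 0.11 on the log2 scale (limma adjusted p = 0.033), from folds of 38.9 and 33.7 to 27.4 and 27.0. One region rose, chr10:42260264-42260957 at 16.1 kb, with folds of 3.91 and 3.06 in Control and 5.49 and 5.67 in TRF2KO and a log2 change of 0.81 ± 0.24 (limma adjusted p = 0.025). The strongest Foxo3 region outside the start, chr10:42250563-42252370, was not called, with folds of 73.9 and 64.4 in Control and 77.1 and 83.8 in TRF2KO. The Foxo3 start, with a log2 change of 0.06 ± 0.05, was not called either (limma adjusted p = 0.558).

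**Figure D4:**
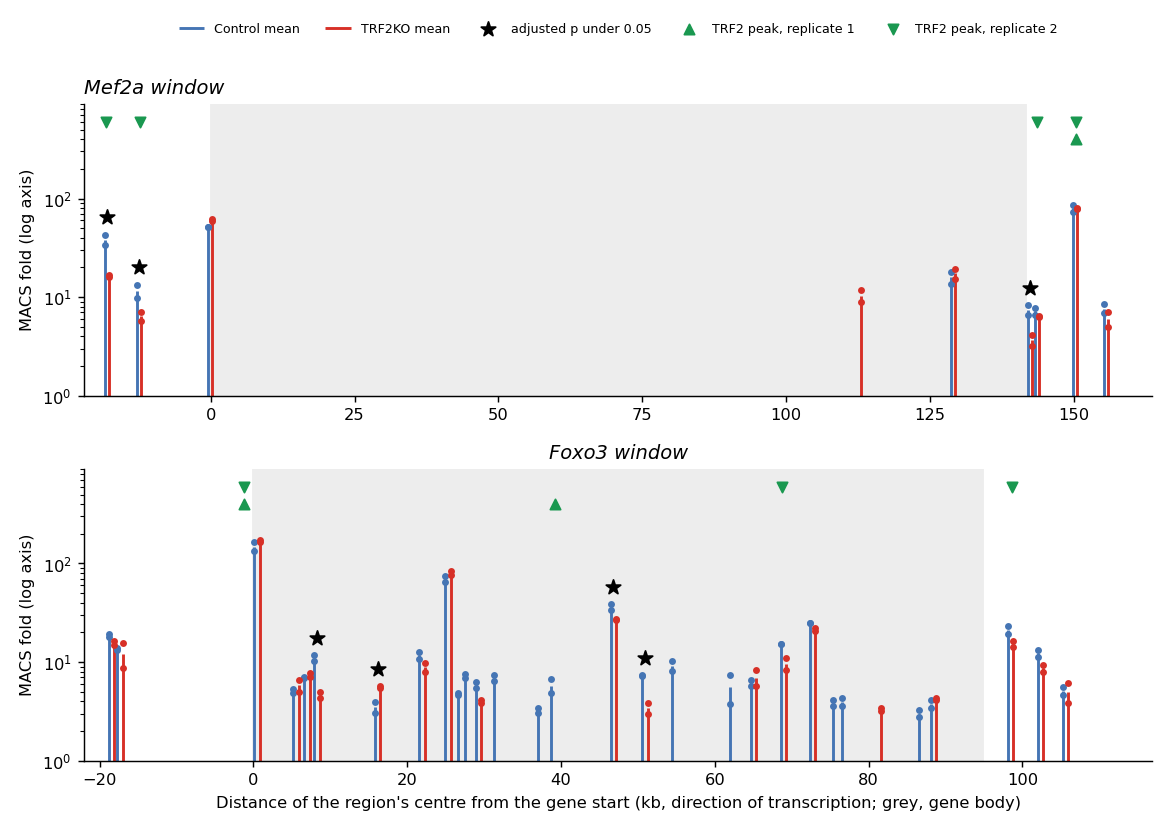
Mean MACS fold (lines, log axis) of merged ATAC regions in the Mef2a and Foxo3 windows against distance from the gene start, blue for Control and red for TRF2KO, drawn where both libraries of a genotype had a peak, with a small point for each library. Stars mark regions past the limma threshold, 3 at Mef2a and 4 at Foxo3, and green triangles mark TRF2 peaks (upward replicate 1, downward replicate 2).

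The call rests on the pooled spread of a 2 against 2 design. With the medians of the libraries aligned in place of whole distributions, 6 of the 7 calls remained, but 5 of the 9 start regions (Mef2a, Mef2b, Mef2d, Foxo1 and Foxo3) were then called higher in TRF2KO. The windows then held 10 calls higher and 6 lower, and the genome 11390 higher and 4606 lower in place of 3044 and 4511, so the calls at start regions depended on the scaling. Without a trend in the prior variance only 2 of the 7 remained, those 18.0 kb upstream of Mef2a and 8.26 kb into Foxo3. When any 1 of the 4 libraries was left out, limma called no region in the windows or in the genome. The median log2 change in the windows was then between -0.067 and -0.0079.

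Sequence at the summit is shown for the 5 called regions with the largest log2 decreases, as DNA where the ATAC fold was lower in TRF2KO. Each stretch is 121 bases around the summit in Control replicate 1, on the plus strand. Capitals mark CAGCTG, an E-box that MyoD family proteins are known to prefer, a motif added after the sequences were seen and absent from the first of them.
Mef2a 18.0 kb upstream, chr7:67390954-67391074: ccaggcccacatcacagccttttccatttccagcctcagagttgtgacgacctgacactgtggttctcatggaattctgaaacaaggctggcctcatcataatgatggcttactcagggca
Mef2a 12.6 kb upstream, chr7:67385646-67385766: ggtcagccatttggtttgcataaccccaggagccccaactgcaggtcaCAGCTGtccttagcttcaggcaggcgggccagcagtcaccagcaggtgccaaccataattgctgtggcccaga
Mef2a downstream edge, chr7:67230364-67230484: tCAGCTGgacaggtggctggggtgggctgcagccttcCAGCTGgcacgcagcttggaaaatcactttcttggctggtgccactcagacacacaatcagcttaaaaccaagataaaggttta
Foxo3 intron at 8.26 kb, chr10:42268341-42268461: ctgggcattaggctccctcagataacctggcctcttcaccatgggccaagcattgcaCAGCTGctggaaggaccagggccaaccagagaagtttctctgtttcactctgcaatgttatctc
Foxo3 intron at 50.9 kb, chr10:42225728-42225848: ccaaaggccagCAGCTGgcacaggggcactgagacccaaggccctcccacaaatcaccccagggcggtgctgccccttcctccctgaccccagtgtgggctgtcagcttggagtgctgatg

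CAGCTG was found within 150 bases of the summit in 4 of the 7 called regions, in 15 of the 59 regions of the windows (25.4%) and in 35.1% of all 61610 regions. A MEF2 consensus match was present near the summit of 1 called region, that at the end of Mef2a, and in 3 of 59 regions against 2.46% of all. None of the 7 had the FoxO site GTAAACA, found in 4 of 59 regions and 3.73% of all, and none of the 59 had the MEF3 site TCAGGTTTC, to which Six4 binds, found in 0.497% of all. No called region held a G4 pattern or TTAGGG in this stretch. G4 matches were in 7 of 59 regions (11.9%) and 12.3% of all, and TTAGGG in 9 of 59 (15.3%) and 10.6% of all. Both strands were searched for every motif.

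**Figure D5:**
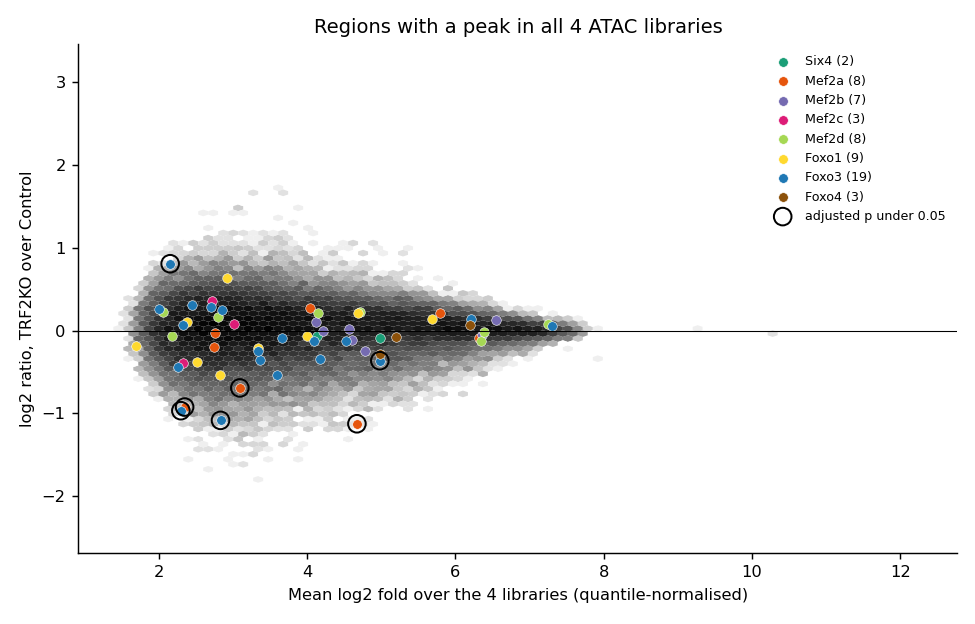
Log2 ratio of fold, TRF2KO over Control, against mean log2 fold for regions with a peak in all 4 ATAC libraries, with all 61610 regions as grey density (darker, more regions) and the 59 regions of the listed genes coloured by gene. Circles mark the 7 regions past the limma threshold, of which 6 lie below 0.

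At the other genes no region was called. Foxo1 had 9 regions in the test, with log2 changes from -0.53 to 0.64 and 2 at an unadjusted p under 0.05. The strongest Foxo1 region outside the start was 10.1 kb upstream, chr3:52257558-52258896, with folds of 26.0 and 23.4 in Control and 29.5 and 25.0 in TRF2KO. Mef2d had 8 regions and Mef2b 7, with log2 changes from -0.13 to 0.23 and from -0.25 to 0.12, and none at an unadjusted p under 0.05. The region with the TRF2 signal downstream of Mef2d had a log2 change of 0.09 ± 0.06 (limma adjusted p = 0.349), and that in the inner Mef2b start 0.03 ± 0.13 (limma adjusted p = 0.928).

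Mef2c had only 3 regions, with log2 changes from -0.39 to 0.35, and the strongest outside its starts was chr13:83518052-83518675, with folds between 7.20 and 9.67. At Six4 the start region had a log2 change of -0.09 ± 0.11 (limma adjusted p = 0.657) and the region at the start of its neighbour Mnat1, 10.3 kb upstream, -0.06 ± 0.16 (limma adjusted p = 0.845). The Foxo4 start had -0.08 ± 0.12 (limma adjusted p = 0.704). The region overlapping the last part of Foxo4, chrX:101259704-101261520, had folds of 37.3 and 33.1 in Control and 29.0 and 27.0 in TRF2KO, a log2 change of -0.28 that was not called (limma adjusted p = 0.106). Outside the genes' own starts, the strongest regions in the Mef2b, Foxo4 and Six4 windows lay at starts of the neighbours Tmem161a, Med12 and Mnat1.

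Promoter sequences, 250 bases before to 50 after a start, were matched for 7 of the 8 genes in RefSeq (GRCm38.p6, 10 promoters). Of the 4 that carried a match, 3 are printed, 1 with a TRF2 peak in both libraries and the others with a MEF2 or MEF3 site, in the direction of transcription, with matches in capitals: G4 at Mef2d, TTAGGG (as its complement) and the MEF2 consensus at Mef2a, and the MEF3 site (as its complement) and G4 at Six4.
Mef2d promoter, chr3:88142122-88142421: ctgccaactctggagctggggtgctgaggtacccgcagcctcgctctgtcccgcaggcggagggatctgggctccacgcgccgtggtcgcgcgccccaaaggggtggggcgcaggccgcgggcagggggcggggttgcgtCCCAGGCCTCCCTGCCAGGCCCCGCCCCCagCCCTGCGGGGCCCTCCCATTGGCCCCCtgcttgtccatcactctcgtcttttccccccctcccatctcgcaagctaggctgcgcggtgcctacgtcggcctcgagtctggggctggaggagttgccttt
Mef2a promoter, chr7:67372809-67373108: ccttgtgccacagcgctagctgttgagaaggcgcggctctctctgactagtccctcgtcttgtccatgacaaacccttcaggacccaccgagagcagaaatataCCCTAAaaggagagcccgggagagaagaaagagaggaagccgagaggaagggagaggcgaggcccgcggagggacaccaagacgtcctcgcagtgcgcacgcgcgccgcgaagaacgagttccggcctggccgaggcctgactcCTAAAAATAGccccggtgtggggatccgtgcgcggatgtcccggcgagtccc
Six4 promoter, chr12:73113196-73113495: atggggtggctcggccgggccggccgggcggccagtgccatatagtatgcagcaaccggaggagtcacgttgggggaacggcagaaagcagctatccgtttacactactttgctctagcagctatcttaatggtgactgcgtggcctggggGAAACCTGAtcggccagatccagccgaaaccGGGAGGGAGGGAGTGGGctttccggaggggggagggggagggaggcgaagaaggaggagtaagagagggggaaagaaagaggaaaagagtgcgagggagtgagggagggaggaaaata

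Peaks of both TRF2 libraries overlapped the promoters of Mef2d and, at the inner start, Mef2b. The Mef2d promoter held 2 G4 matches and that of Mef2b none. G4 was also matched at Foxo3 and at 1 of 2 Six4 promoters, neither covered by a TRF2 peak, and in 22.7% of 20120 coding promoters. The MEF2 consensus in the Mef2a promoter was found in 2.7% of promoters. Its TTAGGG match, a single unit and not a repeat, was found in 10.6%. A MEF3 site such as that of Six4 was in 0.447% of promoters. None of the 10 matched promoters held the FoxO site, found in 2.95%. These are matches of letters in these windows.

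Genes that act with these factors were described from a list of 36. Of them 34 had a start peak in all 4 ATAC libraries, all but Hdac9 and Trim63. In the test of the start regions, where 7.32% of all regions were called lower and 4.94% higher, 1 of 33 fell, Eya1, a coactivator and phosphatase that binds Six4, with a log2 change of -0.36 (limma adjusted p = 0.0085). Among FoxO regulators there rose Foxo6, the remaining FoxO member, by 0.25 (limma adjusted p = 0.030), and Insr, the insulin receptor, by 0.30 (limma adjusted p = 0.031). By rank, 16 of the 34 were lower in TRF2KO without overlap and 3 were higher (28.9% and 9.1% of all coding genes with a start peak), and the median difference was -0.28 points, against -0.25 over all coding genes.

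Of the 8 genes listed with Six4, mostly Eya and Dach genes, 6 were lower without overlap and none was higher. Dach1, a corepressor, was at percentiles 69.1 and 70.3 in Control and 59.0 and 64.0 in TRF2KO, and Eya1 at 91.8 and 93.3 in Control and 88.6 and 88.1 in TRF2KO. Among the regulators of Mef2 3 of 8 with a start peak were lower, led by Hdac7, a class IIa deacetylase, at 87.5 and 85.7 in Control and 80.6 and 81.8 in TRF2KO. Regulators of FoxO showed 4 of 9 lower and 2 higher, Insr at 89.1 and 89.6 in Control and 90.4 and 91.1 in TRF2KO and Foxo6 at 94.4 and 96.2 in Control and 96.3 and 96.4 in TRF2KO. Of 9 FoxO targets with a start peak 3 were lower and 1 higher, Bcl2l11, which encodes the death factor Bim, at 97.1 and 97.3 in Control and 97.5 and 98.0 in TRF2KO. A TRF2 region lay within 1 kb of a start at 18 of the 36 genes, against 23.7% of coding genes and 37.1% of those with a start peak in all 4 ATAC libraries. They were 3 of the 8 genes listed with Six4, 4 of 9 Mef2 regulators, 4 of 9 FoxO regulators and 7 of 10 FoxO targets.

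The coding gene with the most similar start percentiles over the 4 ATAC libraries, by Euclidean distance in points, was Spats2 for Six4 (1.09), Fbxl21 for Mef2a (0.597), Slc47a2 for Mef2c (2.00), Fkbp4 for Mef2d (0.166), Rab2a for Foxo1 (0.900), Cap1 for Foxo3 (0.0518) and Tatdn1 for Foxo4 (0.771). For Mef2b it was Rfxank, at a distance of 0, since both take their value from the same peak.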

How the data were processed

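Per the study's methods and the submitters' processing notes, CUT&Tag reads were aligned to mm10 with Bowtie2, and Picard and SAMtools served to remove duplicates and keep uniquely aligned proper pairs. The methods describe these steps for CUT&Tag under a heading shared with ATAC-seq and give none for ATAC-seq alone, for which the notes name an aligner and MACS3. The authors called peaks per library with MACS3 (3.0.0 for CUT&Tag, 3.0.2 for ATAC-seq), and also with SEACR and GoPeaks. SEACR was run in its stringent mode. Other caller settings, a shift of reads for the transposase and the use of IgG as control are not given in the sources used here. The deposited MACS lists give a fold enrichment (a ratio), a −log10 p and a −log10 q for each summit. SEACR and GoPeaks lists were used for positions only, and the consensus lists were not used. No read counts per region were used here, and the total depth of the libraries is unknown.

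Peaks on chromosomes 1 to 19, X and Y were kept (1 to 7 per list were dropped), with coordinates counted from 1. Genes came from GENCODE M21. Summit pileup and background were solved from fold and p where −log10 p was under 200 and 1 whole pileup matched the p within 0.01, which was so for between 92.2% and 100% of peaks sampled per library. Regions were merged at an overlap of at least 1 bp. A start peak was the highest-fold peak within 1 kb of a coding-transcript start. TRF2 regions needed a peak in both TRF2 libraries. Log2 folds of 61610 regions were quantile-normalised and tested with limma 3.58.1 (R 4.3.3, empirical Bayes with trend, Benjamini-Hochberg threshold 0.05), other tests being exact two-sided permutations over libraries. On simulated data of 61610 regions with 200 changed, limma recovered 84% of log2 changes of 1 and all of those of 2, with 11 false calls. The simulated noise was normal and independent, with a spread set by mean fold, as the fit with trend assumes. It therefore cannot show how the calls in the real data depend on the trend, the scaling or a single library. Python 3.11.15 and pysam 0.24.0 were used for the rest.

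Named were all 8 genes, their start, TRF2, genotype-specific and called regions and the strongest region outside a start. Of the 36 related genes, those called at the start and up to 3 per direction by rank difference were named. The uncalled region at the last part of Foxo4 was named outside this rule. Uncalled regions with a lower adjusted p were not, such as chr3:52369804-52370486 at Foxo1 (log2 change 0.64, limma adjusted p = 0.058). The genes and lists were chosen with earlier results of these data known. The E-box and the comparison with windows of at least 9 peaks were added after the data were seen.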

Additional observations from a re-analysis of the deposited data

How the results depend on the processing

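Peak numbers in the 8 windows differed by a mean of -26.5 in TRF2KO with MACS. The difference was -10 with GoPeaks and turned to 3.5 with SEACR, and over the 4 fits without 1 library it was between -41.5 and -11.5. The 3 genes with start percentiles that did not overlap became between 4 and 8 without 1 library, where a single library faces 2. The 7 called regions became 16 with median centring, 2 without a trend in the prior variance and 4 at a −log10 q of at least 5, where 51 regions were tested. In each fit without 1 library, where the lone sample is taken to vary like the other genotype, limma called no region. Over all regions the calls were 3044 higher and 4511 lower, 11390 and 4606 with median centring and 420 and 761 without the trend. With the replicate block the windows held 9 calls, including all 7. Deviations of same-numbered libraries from their group means correlated at 0.011 across regions, so these folds show little shared effect of replicate number. The labels do not say whether same-numbered libraries were prepared together. The 10 genotype-specific regions became 0 with SEACR, 3 with GoPeaks, 1 when a region of any caller in the other genotype was disallowed, and between 18 and 42 without 1 library, where fewer libraries have to agree. The 6 TRF2 regions became 22 with a peak in either library, 13 or 15 with 1 library alone and 3 at a −log10 q of at least 5. Of the 2 genes with a TRF2 region at a start, 1 was left at that threshold, Mef2b, and 4 were found within 3 kb. The other causes were not tested. The TRF2 summits rest on 8 to 20 fragments, and 2 libraries a group limit every genotype comparison.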
